A study of Mus musculus with 8 samples.

Results

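The Hox genes of the mouse were described here in the middle colon of 4 Trim58 wild type and 4 Trim58 knockout mice after a course of dextran sodium sulfate. A gene was included when the array annotation gave a probe set exactly 1 symbol of the form Hoxa, Hoxb, Hoxc or Hoxd with a number from 1 to 13, antisense names excepted. Where a gene had several such probe sets, the brightest over all 8 arrays was kept. This gave 36 Hox genes among the 22180 genes measured, with 9 in the a cluster, 10 in the b cluster, 9 in the c cluster and 8 in the d cluster. No measured difference entered this choice. Hoxa11 and Hoxd4 appeared only on probe sets that also name another gene and were not analysed here.

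Hox genes encode homeodomain transcription factors that lie in 4 clusters on separate chromosomes. Within a cluster, low numbers are expressed toward the head of the embryo and high numbers toward the tail, and genes with the same number in different clusters are paralogs. The gut keeps part of this code in adult life, in its mesenchyme and for some genes in its epithelium. Genes of paralog number 13 are known as markers of the hindgut, and Hoxb13 is best known in distal colon, rectum and prostate. The paralogs are grouped below as anterior (1 to 3), central (4 to 8) and posterior (9 to 13).

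All mice were 9 weeks old females, and the strain of both genotypes is given as C57BL/6-Trim58tm2313Arte. The wild type animals were Trim58+/+ and the knockouts Trim58-/-, which lack the gene completely. Both groups drank 4.0% dextran sodium sulfate (DSS), a polymer that injures the colon lining, for 7 days and plain water for 5 more, and the middle colon was taken on day 12. No untreated colon was analysed here, so every Hox value below is from a colon after DSS. Each mouse gave 1 array and its own RNA. Values are the log2 signals of the authors' deposited table, so a difference of 1 is a doubling.

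The arrays had medians between 5.73 and 5.83 over all probe sets, and any pair correlated at 0.974 to 0.993 across the 22180 genes. Trim58 itself was at 5.12 ± 0.09 in wild type and 5.05 ± 0.24 in knockout (SD, n = 4 each), a level at which the probe set does not check the genotype labels. Knockouts 1, 2 and 4 stood apart by a strong signal of pancreatic acinar genes, whose values are given beside Hoxb13. The colon genes Muc2, a mucin gene, and Car1, a carbonic anhydrase gene of colonocytes, were bright in all 8 arrays (means 13.55 and 11.94), while Mptx1 of the same colon list was at 2.98 and 3.20 in knockouts 1 and 2. As a rough guide to signal without transcript, the 95th percentile of 1105 olfactory receptor genes, which gut hardly transcribes, was 5.53. Of 11 genes listed for the small intestine, 7 had a mean above this level, among them Apob at 8.50 and Rbp2 at 7.01, while the enzyme genes Lct and Sis were under it at 5.43 and 4.05.

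Of the 36 Hox genes, 20 had a mean above this level, and 10 exceeded the 99th percentile of the olfactory receptors, 6.46. All 9 a cluster genes were among the 20, against 5 of 10 in the b cluster, 5 of 8 in the d cluster and 1 of 9 in the c cluster. The b cluster genes above the level were Hoxb4, Hoxb5, Hoxb6, Hoxb9 and Hoxb13, and the d cluster genes were Hoxd8, Hoxd10, Hoxd11, Hoxd12 and Hoxd13. Hoxc13 was the c cluster gene that exceeded it, while Hoxc4 to Hoxc12 averaged from 3.70 to 5.11. All 4 paralogs numbered 13 were above the level. Probe sets differ in how they bind, so these are counts of genes over a rough limit and not a ranking of Hox genes.

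**Figure D1:**
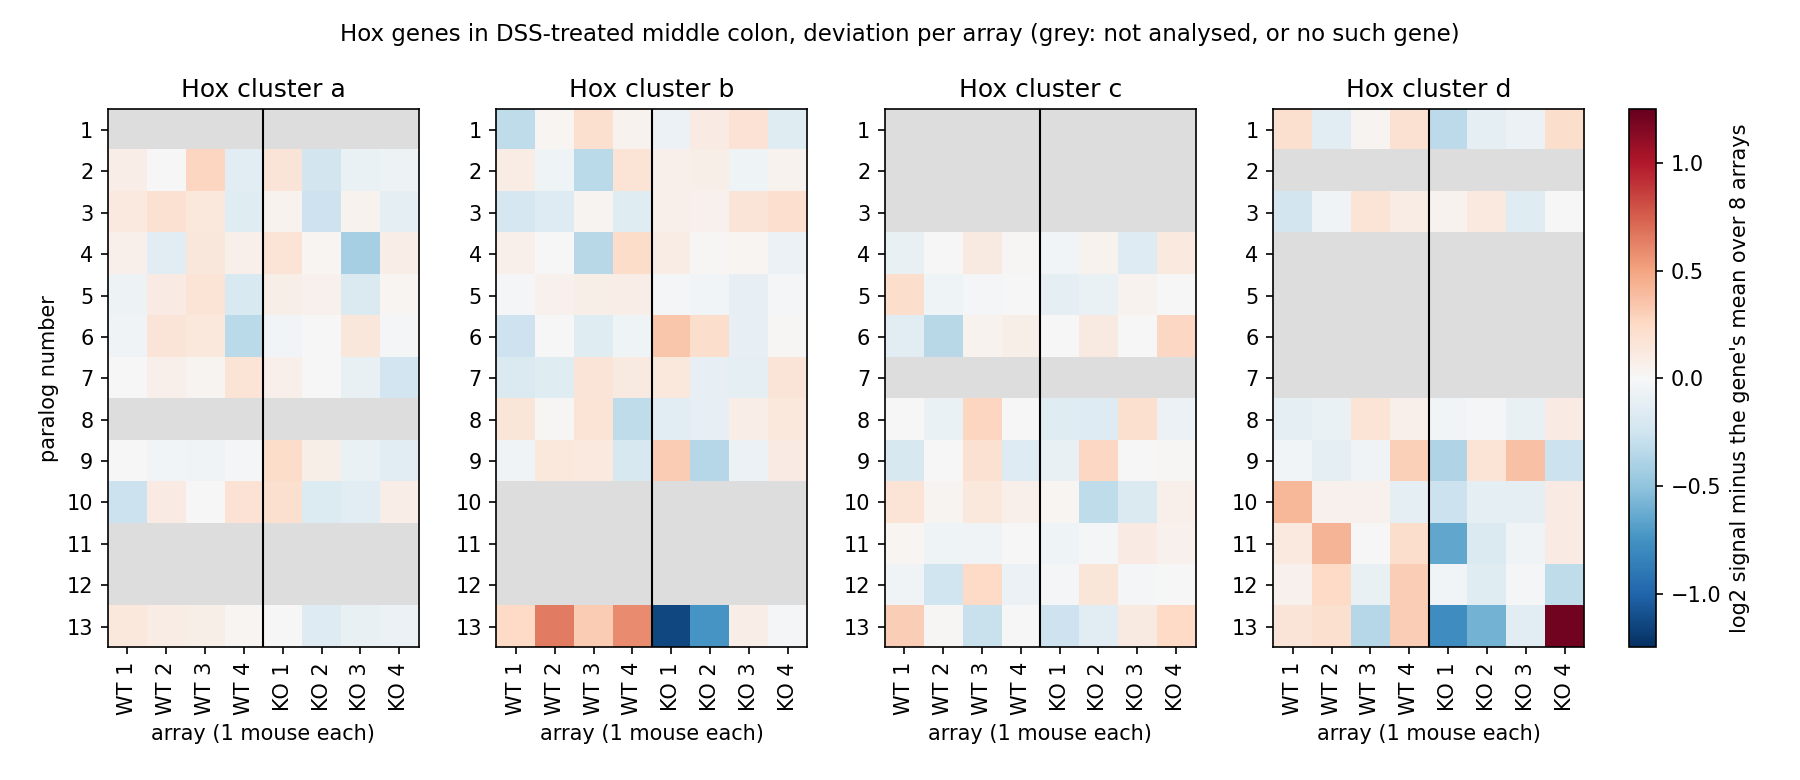
Each cell is the log2 value of a Hox gene in 1 array minus that gene's mean over the 8 arrays, in a panel per cluster with paralog number as rows and mice, by genotype, as columns. The colours are strongest in Hoxb13, low in knockout 1 and knockout 2, and in Hoxd13, low in the same mice and high in knockout 4.

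The comparison between genotypes found no Hox gene past an adjusted p of 0.05 (limma, Benjamini-Hochberg over 22180 genes), where 0.577% of all genes passed, 0.392% higher and 0.185% lower in the knockout. At an unadjusted p under 0.05 there were 6 Hox genes, 16.7% of the 36, against 14.3% of all genes. Higher in the knockout at that level were Hoxb3 and Hoxb6 (background 6.22% of genes), and lower were Hoxb13, Hoxd11, Hoxd12 and Hoxa13 (background 8.1%). The values of the genotypes did not overlap for 3 of 36 Hox genes, or 8.33%, close to the 8.81% of all genes. These were Hoxb3, higher in all 4 knockouts (3.79% of genes did so), and Hoxb13 and Hoxa13, lower in all 4 (5.02% of genes). The median difference, knockout minus wild type, was -0.01 over the Hox genes and -0.01 over all genes.

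Hoxb13, the most 5′ gene of the b cluster, had the smallest p among the Hox genes. Its log2 level was 8.28, 8.67, 8.35 and 8.62 in wild type mice 1 to 4 and 6.89, 7.28, 8.10 and 8.01 in knockout mice 1 to 4. All 4 knockouts were below the lowest wild type, with knockouts 1 and 2 far below and knockouts 3 and 4 within a short distance of it. The means were 8.48 ± 0.20 and 7.57 ± 0.58 (SD, n = 4 each), a 1.87-fold lower level in the knockout. The log2 difference of -0.91 had a standard error of 0.24 and a 95% interval from -1.45 to -0.36, and its limma adjusted p was 0.125. Without knockout 1 the difference was -0.68, and without knockout 3 it was -1.08 with a limma adjusted p of 0.0663. In the order of protein-coding and microRNA genes, the neighbours of Hoxb13 are Ttll6 and the microRNA gene Mir196a-1, which lies between Hoxb13 and Hoxb9. Mir196a-1 was at 8.26, 8.42, 8.43 and 7.46 in wild type and 8.49, 7.72, 8.11 and 7.91 in knockout, and the genotypes overlapped. Hoxb9 was at 8.10 ± 0.16 and 8.09 ± 0.28 (SD, n = 4 each) with a 95% interval of the difference from -0.32 to 0.31.

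Hoxa13, needed for the hindgut and the end of the digestive tract in the embryo, varied little. Its log2 level was 7.92, 7.89, 7.86 and 7.82 in wild type and 7.80, 7.63, 7.70 and 7.72 in knockout. Every knockout was below every wild type, by a narrow margin between wild type 4 and knockout 1. The difference was -0.16 with a standard error of 0.07 and a limma adjusted p of 0.344.

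Hoxd13, the d cluster paralog that acts with Hoxa13 in hindgut and limb, had the widest spread of these genes. It was at 6.81, 6.85, 6.29 and 6.96 in wild type and at 5.88, 6.06, 6.51 and 7.86 in knockout. Knockouts 1 and 2 were the lowest of the 8 mice and knockout 4 the highest, so the knockout values spanned the wild type range on both sides. The difference of -0.15 had a 95% interval from -0.97 to 0.66 and a limma adjusted p of 0.899. Without knockout 4 it was -0.58, with a limma adjusted p of 0.215. Evx2, the homeobox gene next to Hoxd13 beyond the end of the cluster, was at 5.52, 5.57, 5.60 and 5.60 in wild type and 4.94, 5.28, 5.51 and 5.68 in knockout. Its mean of 5.46 was under the olfactory receptor level, and its difference of -0.22 had a limma adjusted p of 0.542. Hoxc13, known from hair and nail, was at 6.05, 5.76, 5.47 and 5.75 in wild type and 5.49, 5.60, 5.86 and 6.00 in knockout. Its genotypes overlapped throughout, with a difference of -0.02 and a 95% interval from -0.34 to 0.30.

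**Figure D2:**
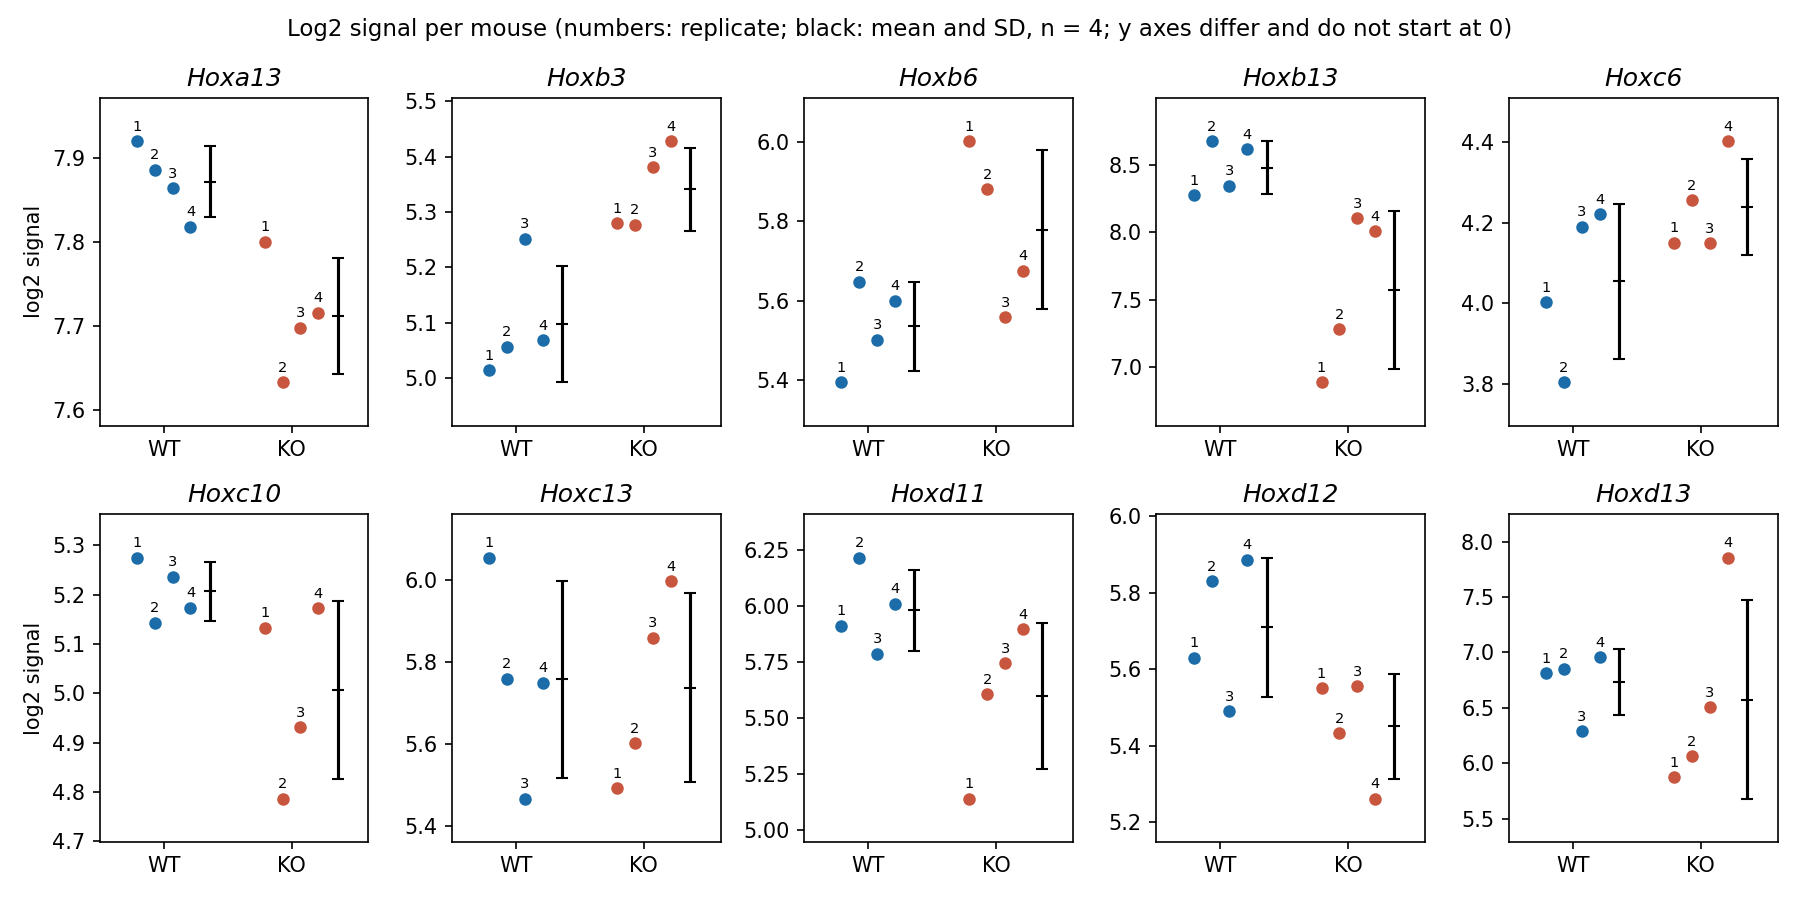
Points are the log2 array signals of single mice for the 10 Hox genes named with full values, in 4 wild type and 4 knockout mice, with the group mean and its SD. Hoxb13, Hoxa13 and Hoxb3 show no overlap between the genotypes, and Hoxd13 has its lowest and its highest mice both among the knockouts.

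The promoters of Hoxa13, Hoxd11, Hoxd12 and Hoxd13 are shown here, posterior genes at the ends of the a and d clusters with differences below 0. Hoxb13 had no window among the promoters used here. Other posterior genes below 0, among them Hoxd10 and Hoxc10, are not shown. The printed bases are the 250 before each RefSeq start site in GRCm38.p6. RefSeq lists Hoxd11 with 2 starts. Capitals mark matches on either strand to ATAAA, the end of the motif CAATAAA known for posterior Hox proteins, and overlapping matches are joined.
Hoxa13, chr6:52260881-52261130, minus strand: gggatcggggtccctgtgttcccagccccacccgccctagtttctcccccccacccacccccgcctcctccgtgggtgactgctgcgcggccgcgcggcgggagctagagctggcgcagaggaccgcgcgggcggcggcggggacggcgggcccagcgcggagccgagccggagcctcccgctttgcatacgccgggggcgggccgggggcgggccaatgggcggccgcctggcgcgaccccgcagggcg
Hoxd13, chr2:74667975-74668224, plus strand: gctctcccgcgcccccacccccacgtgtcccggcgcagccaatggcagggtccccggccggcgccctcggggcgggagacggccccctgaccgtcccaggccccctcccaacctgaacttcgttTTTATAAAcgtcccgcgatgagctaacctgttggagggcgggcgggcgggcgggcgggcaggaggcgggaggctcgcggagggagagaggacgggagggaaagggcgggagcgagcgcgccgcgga
Hoxd12, chr2:74674763-74675012, plus strand: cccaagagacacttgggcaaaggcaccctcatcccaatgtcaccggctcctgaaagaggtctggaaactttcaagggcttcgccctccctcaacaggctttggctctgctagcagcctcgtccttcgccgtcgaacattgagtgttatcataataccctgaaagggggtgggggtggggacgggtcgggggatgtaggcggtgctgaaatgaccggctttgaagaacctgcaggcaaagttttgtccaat
Hoxd11 start 1, chr2:74679308-74679557, plus strand: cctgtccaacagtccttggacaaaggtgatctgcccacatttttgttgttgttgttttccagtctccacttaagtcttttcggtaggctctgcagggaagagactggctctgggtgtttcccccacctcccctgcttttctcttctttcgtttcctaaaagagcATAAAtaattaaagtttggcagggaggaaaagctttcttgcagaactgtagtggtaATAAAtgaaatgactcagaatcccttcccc
Hoxd11 start 2, chr2:74682073-74682322, plus strand: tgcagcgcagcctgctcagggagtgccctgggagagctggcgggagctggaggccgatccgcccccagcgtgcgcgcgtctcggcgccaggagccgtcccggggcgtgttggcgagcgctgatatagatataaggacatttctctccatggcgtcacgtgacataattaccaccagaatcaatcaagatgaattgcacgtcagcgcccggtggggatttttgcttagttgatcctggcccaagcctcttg
Hoxa13 and Hoxd13 have CpG-rich promoters, with 35 and 31 CG pairs in the window, Hoxd11 start 2 has 20, Hoxd12 has 10 and Hoxd11 start 1 has 2, where the median over the RefSeq promoters was 6. The core ATAAA occurred 2 times in Hoxd13, as the overlapping pair in TTTATAAA, 2 times at Hoxd11 start 1, and in no other window printed. Over windows of 300 bases that also hold the 50 bases after the start, 40% of 32851 RefSeq promoters carry ATAAA, and 8 of 22 Hox windows, which cover 20 of the 36 genes, do so. A further motif of posterior Hox proteins, TCGTAAA, was in 0.597% of all windows and in those of Hoxb8 and Hoxd11 start 1, at the latter within the bases after the start. CAATAAA, which contains ATAAA, was in 4.6% of all windows and in that of Hoxb8.

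Among the other posterior genes of the d cluster, Hoxd11 and Hoxd12 also had small unadjusted p values. Hoxd11 was at 5.91, 6.22, 5.79 and 6.01 in wild type and 5.14, 5.61, 5.75 and 5.90 in knockout. Knockouts 1, 2 and 3 were below all wild types and knockout 4 was within their range. The difference was -0.38 with a standard error of 0.16 and a limma adjusted p of 0.297. Without knockout 1 it was -0.23, without an unadjusted p under 0.05, and with the pan-epithelial list as a covariate it was -0.075. Hoxd12 was at 5.63, 5.83, 5.49 and 5.89 in wild type and 5.55, 5.43, 5.56 and 5.26 in knockout. Here knockout 4, the highest mouse for Hoxd13, was the lowest, and the genotypes overlapped. The difference was -0.26 with a standard error of 0.11 and a limma adjusted p of 0.313, and with the pancreatic list as a covariate it was -0.15. Hoxd10 was at 6.22 ± 0.22 in wild type and 6.01 ± 0.15 in knockout (SD, n = 4 each), a difference of -0.21 with a limma adjusted p of 0.494. Hoxd9, at means of 4.45 and 4.40, was under the olfactory receptor level. All 4 genes from Hoxd10 to Hoxd13 thus had differences below 0, with a median of -0.23, but not in the same mice.

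The remaining posterior genes belong to the a and c clusters. Hoxa9, which together with Hoxa10 patterns the trunk and is studied in blood stem cells, was at 7.34 ± 0.01 in wild type and 7.39 ± 0.16 in knockout (SD, n = 4 each). Hoxa10 differed by -0.01, from 6.68 to 6.67. In the c cluster Hoxc10 was at 5.28, 5.14, 5.24 and 5.17 in wild type and 5.13, 4.79, 4.93 and 5.17 in knockout, all under the olfactory receptor level. Its difference was -0.20 with a standard error of 0.10 and a limma adjusted p of 0.382. It was -0.13 without knockout 2, -0.098 with the smooth muscle covariate and -0.11 with the leukocyte covariate. Hoxc9, Hoxc11 and Hoxc12 were also dim, with differences of 0.09, 0.04 and 0.06.

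Among the central genes, Hoxb6 had the smallest p. It was at 5.40, 5.65, 5.50 and 5.60 in wild type and 6.00, 5.88, 5.56 and 5.68 in knockout. Knockouts 1, 2 and 4 were above all wild types and knockout 3 within their range. The difference was 0.24 with a standard error of 0.11 and a limma adjusted p of 0.346. Knockouts 1, 2 and 4 are also the mice with the pancreatic signal, and the difference was 0.051 with the pancreatic, 0.023 with the pan-epithelial and 0.12 with the fibroblast list as a covariate. Hoxc6, another paralog numbered 6, was at 4.00, 3.80, 4.19 and 4.22 in wild type and 4.15, 4.25, 4.15 and 4.40 in knockout, under the olfactory receptor level in all mice. Its difference was 0.18 with a limma adjusted p of 0.492, and it was 0.10 without wild type 2, 0.091 with the pancreatic, 0.031 with the pan-epithelial and 0.10 with the fibroblast covariate. The other central genes above that level were Hoxa4, Hoxa5, Hoxa6, Hoxa7, Hoxb4, Hoxb5 and Hoxd8. Hoxa5, which in the mouse is needed for the maturation of gut and lung, was at 7.09 ± 0.16 in wild type and 7.08 ± 0.12 in knockout (SD, n = 4 each). Hoxa7 had the largest difference of these 7, -0.13, from 8.06 to 7.93, and Hoxb4 and Hoxd8 differed by 0.03 and -0.01. Hoxb5, which acts in the enteric nervous system, was at 6.48 ± 0.05 and 6.39 ± 0.04 (SD, n = 4 each), and its second, dimmer probe set had a mean of 5.96.

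Of the 7 anterior genes, Hoxa2 and Hoxa3, known from the hindbrain and the pharynx, were above the olfactory receptor level. Hoxa2 was at 7.07 ± 0.16 in wild type and 6.96 ± 0.16 in knockout, and Hoxa3 at 6.32 ± 0.16 and 6.17 ± 0.15 (SD, n = 4 each). Hoxb3 was at 5.01, 5.06, 5.25 and 5.07 in wild type and 5.28, 5.28, 5.38 and 5.43 in knockout, so all knockouts were above all wild types. The difference was 0.24 with a standard error of 0.08 and a limma adjusted p of 0.196, at a level under that of the olfactory receptors. With the fibroblast covariate it was 0.39. Hoxb1, Hoxb2, Hoxd1 and Hoxd3 had means from 5.02 to 5.40 and differences of 0.03, 0.06, -0.15 and 0.01.

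**Figure D3:**
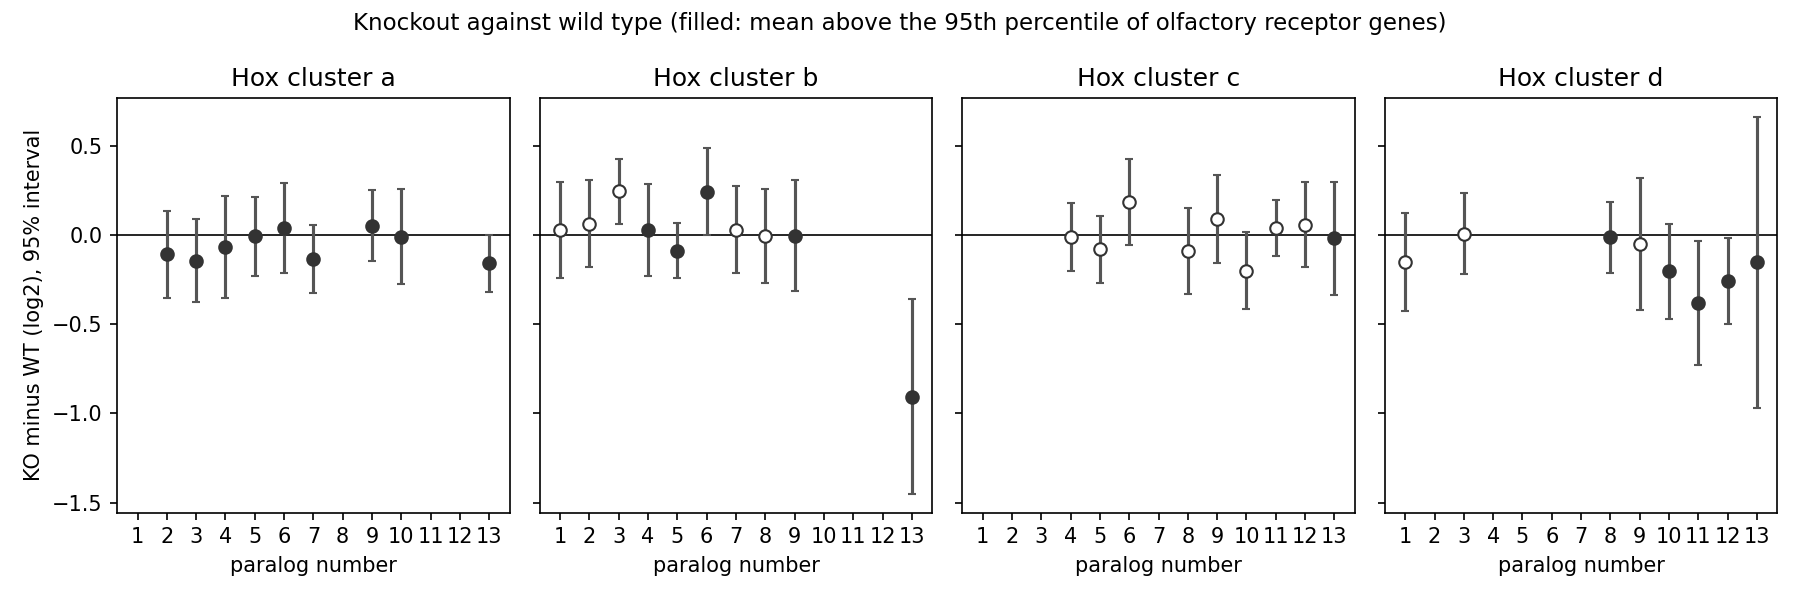
Each point is the knockout minus wild type log2 difference of a Hox gene with its 95% interval from limma. Points are set against paralog number in a panel per cluster, with hollow points for genes under the olfactory receptor level. Hoxb3 and Hoxb6 are the highest points at 0.24, and 11 of 15 posterior points are below 0, Hoxb13 farthest at -0.91.

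Along the paralog number, the median difference was 0.01 for the 7 anterior genes, -0.01 for the 14 central genes and -0.05 for the 15 posterior genes. Differences were below 0 for 3 of 7 anterior, 9 of 14 central and 11 of 15 posterior genes, and for 53.9% of all genes. The 4 genes lower at an unadjusted p under 0.05 were all posterior, which is 26.7% of that group beside the 8.1% of all genes. Without knockout 2 the posterior median was 0.015 and 1 posterior gene was lower at that level, and without wild type 2 the count was also 1. With the pancreatic, pan-epithelial or fibroblast list as a covariate the count was 0. Calls over all genes at a limma adjusted p under 0.05 also fell in these fits, from 128 to 3, 0 and 0. In the paralogs 10 to 13, which were not a group set in advance, 9 of 11 were below 0 with a median of -0.16. That cut leaves out Hoxa9, Hoxb9, Hoxc9 and Hoxd9, with differences of 0.05, -0.004, 0.09 and -0.05. By cluster, the medians were -0.07 (a), 0.03 (b), -0.01 (c) and -0.15 (d), with 7 of 8 d cluster genes below 0. The difference between posterior and other Hox genes was not tested. Neighbouring Hox genes share a chromosome and are read from the same 8 RNA samples, so these counts are not independent observations.

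The low posterior values were uneven across the knockout mice. The mean deviation of the 15 posterior genes from their own means was 0.07, 0.10, 0.02 and 0.09 in wild type mice 1 to 4 and -0.19, -0.15, -0.02 and 0.08 in knockout mice 1 to 4. Knockouts 1 and 2 were below all others, knockout 3 a little below the lowest wild type, and knockout 4 lay among the wild types. Knockout 1 was the lowest mouse for 5 of the 15 posterior genes and knockout 2 for 3, against 2 and 3 of the 21 other Hox genes. Knockout 1 was also the highest mouse for 3 posterior genes, Hoxa9, Hoxa10 and Hoxb9, and knockout 2 for 1. For the 4 paralogs numbered 13 the deviations were 0.21, 0.24, -0.06 and 0.23 in wild type and -0.54, -0.41, -0.01 and 0.34 in knockout. The knockout minus wild type difference of this per-mouse mean was -0.14 for posterior genes (pooled SD 0.09), -0.01 for anterior genes (pooled SD 0.04) and 0.00 for central genes (pooled SD 0.04).

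Marker lists of the tissues a piece of colon can hold also varied among these mice. The mean of 17 smooth muscle genes was 9.53 to 9.95 in wild type and 9.28 to 9.83 in knockout, with 7 lower and 1 (Cald1) higher at an unadjusted p under 0.05. The mean of 12 pan-epithelial genes was 11.04 to 11.11 in wild type and 10.89 to 11.03 in knockout, with 2 of 12 lower at that level. The mean of 9 colon epithelial genes was 11.16 to 11.57 and 10.36 to 10.86, with 5 of 9 lower. Its member Mptx1 had the largest difference, -3.54, and the list median was -0.38 beside -0.71 for the list mean. Car4 of the same list, a carbonic anhydrase of surface colonocytes, was 1.80-fold lower in the knockout (limma adjusted p 0.0401). The mean of 10 fibroblast genes was 9.17 to 9.57 and 9.62 to 9.92, with 7 of 10 higher at an unadjusted p under 0.05 and the collagen gene Col1a2 1.56-fold higher in the knockout (limma adjusted p 0.0396). The mean of 9 leukocyte genes was 7.36 to 8.36 and 8.26 to 8.85, with 6 of 9 higher, and that of 15 enteric neuron and glia genes 6.36 to 6.60 and 6.20 to 6.50, with 4 of 15 lower at an unadjusted p under 0.05, among them Snap25 (difference -0.67, limma adjusted p 0.0792). The mean of 11 small intestinal genes was 5.98 to 6.04 and 5.83 to 6.14, and that of 9 squamous epithelial genes 4.80 to 5.19 and 5.08 to 5.15. The mean of 8 stomach genes was 5.39 to 5.47 and 5.45 to 5.97. In that list Tff2, a trefoil peptide gene of gastric mucous cells, was at 5.08 to 5.76 in wild type and 8.18, 9.74, 5.70 and 9.19 in knockouts 1 to 4, a difference of 2.88 with a limma adjusted p of 0.0995. In bulk RNA, fewer cells of a type and less RNA per cell cannot be told apart.

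A list of 10 pancreatic acinar genes set the same 3 knockouts (1, 2 and 4) apart. In it 9 of 10 were higher at an unadjusted p under 0.05 (background 6.22% of genes) and none passed the adjusted threshold (limma). Its members Zg16, Cela1 and Clps were above the 99th percentile of the olfactory receptors in wild type colon too, at means of 12.92, 10.33 and 7.98. The list mean was 6.54 to 6.70 in wild type and 10.68, 11.47, 6.40 and 11.20 in knockouts 1 to 4. Hoxb13 was alike in knockout 3, without that signal, at 8.10, and in knockout 4, with it, at 8.01. With the pancreatic list as a covariate the Hoxb13 difference was -0.46, with the pan-epithelial list -0.16, with the fibroblast list -0.56, with the smooth muscle list -0.99 and with the leukocyte list -1.09. The part of tissue makeup in the Hoxb13 difference was not tested beyond these values, and the pan-epithelial and fibroblast lists themselves separate the genotypes without overlap.

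**Figure D4:**
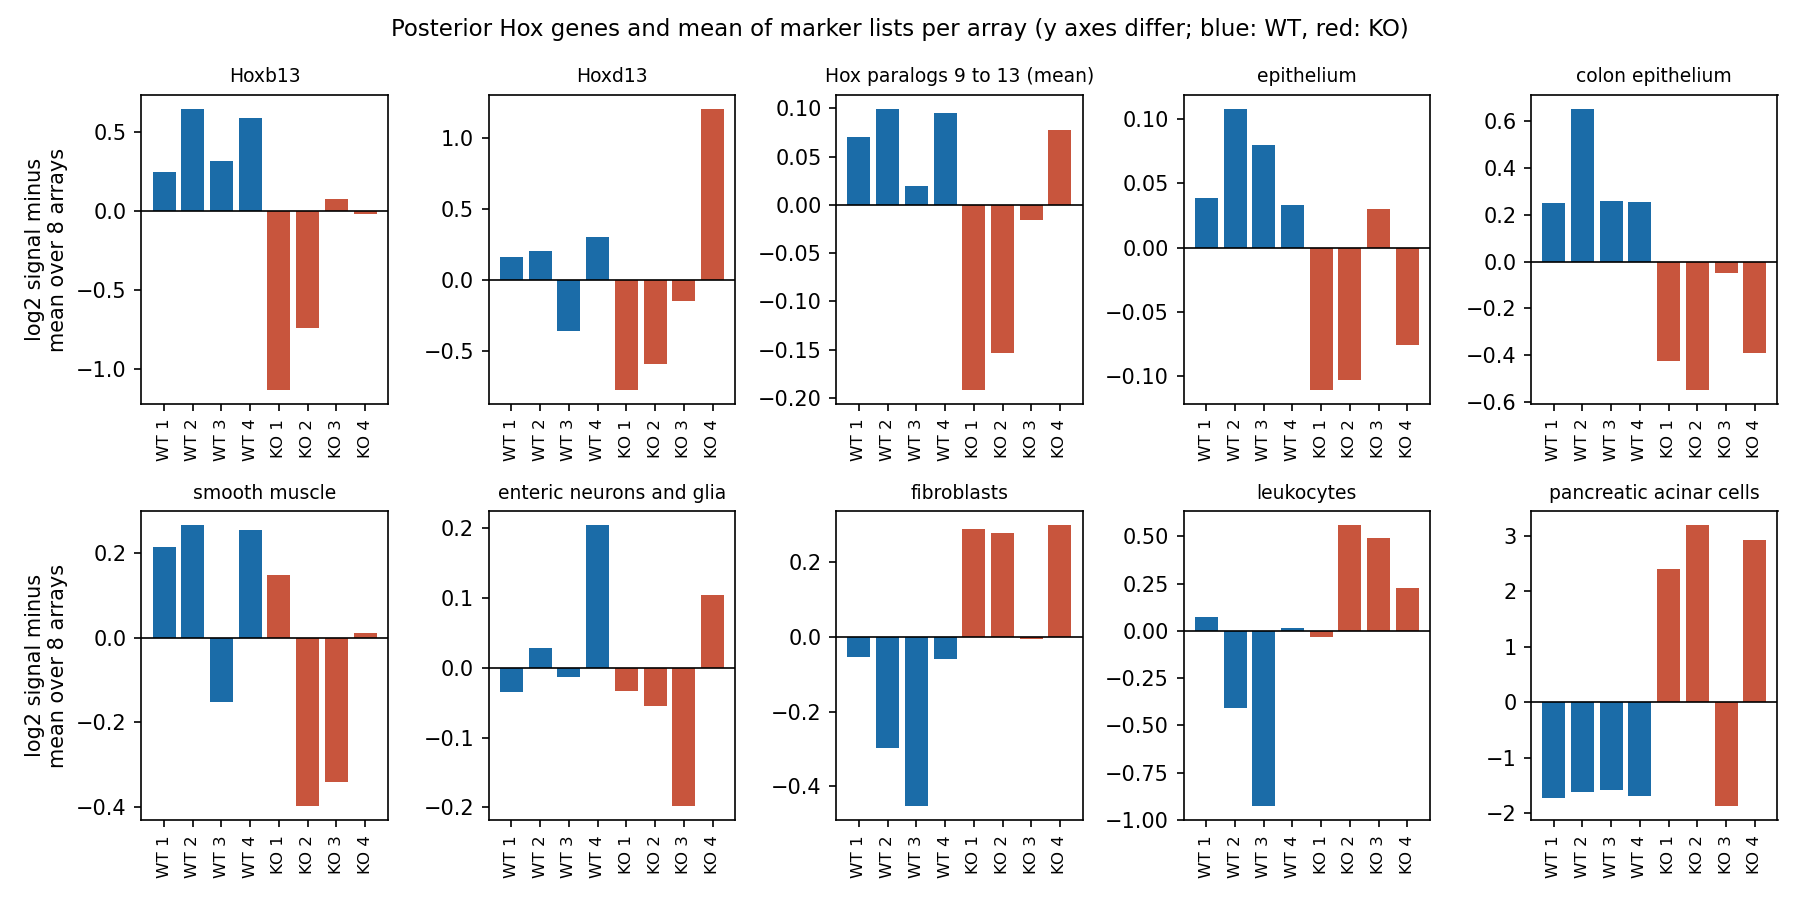
Bars give, for 4 wild type and 4 knockout mice, the log2 signal minus its mean over the 8 arrays, for Hoxb13, Hoxd13, the mean of the 15 posterior Hox genes and the means of tissue marker lists, on axes that differ. Knockouts 1 and 2 are lowest in the Hox panels, and the pancreatic list is high in knockouts 1, 2 and 4.

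The genes that work with or around the Hox genes were taken as lists. The TALE homeodomain proteins (Pbx, Meis, Prep and Tgif families) include the partners with which Hox proteins bind DNA. Of 11 listed, 10 were measured and none passed an adjusted p of 0.05 (limma). At an unadjusted p under 0.05, 2 were lower (background 8.1% of genes). These were Tgif1 (7.71 to 7.48 in knockout, difference -0.24, limma adjusted p 0.227) and Meis3 (6.34 to 6.05, difference -0.29, limma adjusted p 0.253). Of 18 transcription factors known for position along the gut, 15 were measured and 1 passed (background 0.577% of genes). At an unadjusted p under 0.05 (limma), 1 was higher and 2 lower (background 6.22% and 8.1% of genes). Onecut2, a factor of liver and upper intestine, was at 5.46, 5.60, 5.66 and 5.46 in wild type and 5.16, 5.08, 4.99 and 5.12 in knockout. All knockouts were below all wild types, with a difference of -0.46, a standard error of 0.08 and a limma adjusted p of 0.0361, but the mean of 5.32 was under the olfactory receptor level. The call was lost, limma adjusted p over 0.05, when any of wild types 2, 3 or 4 or any knockout was left out.

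Isx, an intestine-specific homeobox gene, was 0.41 higher in the knockout without passing (limma adjusted p 0.139), and Hnf4a, a factor of the gut epithelium, was 0.22 lower (limma adjusted p 0.3). The caudal genes Cdx1 and Cdx2, which set the hindgut identity and act upstream of Hox genes in the embryo, differed by -0.18 (limma adjusted p 0.384) and 0.19 (limma adjusted p 0.801). Cdx2 was at 7.45, 8.16, 8.09 and 8.69 in wild type and 8.71, 8.39, 8.23 and 7.79 in knockout. The genotypes overlapped, with the highest Cdx2 values in knockout 1 and wild type 4, at 8.71 and 8.69.

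Of 10 genes that flank the clusters, 9 were measured and none passed (limma). At an unadjusted p under 0.05, 2 were lower (background 8.1% of genes). They were Hibadh at the a cluster (difference -0.22, limma adjusted p 0.214) and Mtx2 at the d cluster (difference -0.18, limma adjusted p 0.332). Evx1, the a cluster counterpart of Evx2, differed by 0.05. Of 15 noncoding genes within the clusters, 7 were measured and none passed at either level (limma). The microRNA gene Mir10b differed by -0.27 (limma adjusted p 0.45) and Hotair, a long noncoding RNA of the c cluster, by 0.11 (limma adjusted p 0.579), but their means of 2.71 and 5.25 were both under the olfactory receptor level.

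Polycomb and trithorax proteins keep Hox genes off or on in the positions set in the embryo. Of 24 listed, 22 were measured, none passed (limma) and 1 was lower at an unadjusted p under 0.05 (background 8.1% of genes). That was Ezh1, a histone H3 methyltransferase, at 9.14 in wild type and 8.85 in knockout, with a limma adjusted p of 0.119. The demethylase gene Kdm6b differed by 0.20 (limma adjusted p 0.409). Retinoic acid induces the anterior Hox genes in the embryo. Of 18 genes of its pathway, 17 were measured and none passed (limma). At an unadjusted p under 0.05, 3 were higher (background 6.22% of genes). These were the synthesis genes Rdh10 (difference 0.41, limma adjusted p 0.155) and Aldh1a3 (difference 0.64, limma adjusted p 0.237) and the binding protein gene Crabp2 (difference 0.33, limma adjusted p 0.29).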

How the data were processed

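Total RNA of 8 middle colons, 200 ng each, was measured on Affymetrix whole-transcript arrays. The deposited log2 values are RMA output of Affymetrix Expression Console 1.4, per the submitters' processing notes. RMA sets arrays to a common distribution and compresses differences of dim genes. Arrays give signal, not counts, and their number, 4 per genotype, limits the precision.

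Of 41345 probe sets, 23521 carried 1 symbol, and the brightest per gene gave 22180 genes, without a filter on dim genes. All 36 Hox genes matched the RefSeq gene table by Entrez identifier. A linear model with genotype as its sole term was fitted to the deposited values (lmFit and eBayes of limma 3.58.1, under R 4.3.3), and p-values were adjusted by Benjamini-Hochberg over all genes. Alternatives were another variance model, array weights, normalization, probe set choice, a dim filter, marker covariates, a replicate block and leaving out each mouse.

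Full values were given for the 8 Hox genes of smallest p and the paralogs numbered 13. In the lists of genes that work with or around the Hox genes, called genes and the 2 of smallest p were named. Of these Onecut2 has full values and the others have group means or differences. Evx1, Evx2, Mir196a-1, Cdx1, Cdx2 and further genes with smaller differences were added after their values were seen. The members and lists were chosen with earlier results of these data known. Promoters came from RefSeq.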

Additional observations from a re-analysis of the deposited data

Results flagged for a closer look

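Among the groups of 4 mice, 96 were examined for a value far from its fellows, and 2 had one, where chance gives about 1 in 20. Hoxa6, a central gene, was at 7.68 in knockout 3 while the other knockouts were between 7.51 and 7.53, and the wild types from 7.20 to 7.70 covered all of them. Hoxc12 was at 5.27 in knockout 2 against 5.09 to 5.11 in the other knockouts, at a level under that of the olfactory receptors.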

How the results depend on the processing

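No Hox gene passed an adjusted p of 0.05 in limma under any of 20 alternatives, with 6 at an unadjusted p under 0.05 in the reported analysis and 128 genes overall past the adjusted threshold (0 to 252 over the alternatives). The Hoxb13 difference was below 0 in all 20, from -1.09 to -0.16, with an unadjusted p under 0.05 in 17 and a limma adjusted p from 0.0663 to 0.995. The rest were the pancreatic, pan-epithelial and fibroblast covariates, with standard errors of 0.34, 0.33 and 0.43 (unadjusted limma p 0.2, 0.65 and 0.224). The count of 6 was 3 with a replicate block, 2 with a smooth muscle covariate, 1 with a pancreatic covariate, 2 with a pan-epithelial and 2 with a fibroblast covariate, and 2 to 6 when a mouse was left out. It was 3 without wild type 2 and 2 without knockout 2. The posterior genes lower at that level, 4, ranged from 0 to 4. The pan-epithelial, fibroblast and leukocyte covariates were chosen after seeing the data.

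The replicate numbers did not pair the mice: correlations of same-numbered deviations ran from -0.16 to 0.05, and 0 of 8 arrays correlated best with their own number. With the block, 64 genes passed overall and no Hox gene did.

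The anterior median of 0.01 became -0.042 without the dimmest genes, -0.088 with the smooth muscle, -0.11 with the pan-epithelial and 0.10 with the leukocyte covariate (-0.074 to 0.038 leaving out a mouse). The central median of -0.01 became -0.077 (pan-epithelial) and 0.080 (leukocyte), or -0.061 to 0.032. The posterior median of -0.05 became -0.16 without the dimmest genes and -0.17 with the fibroblast covariate, or -0.13 to 0.015. Leaving out the dimmest genes kept each remaining gene's difference and left 22 of the 36 Hox genes, so those medians cover fewer members. The per-mouse anterior difference was -0.13 over the 2 anterior members above the olfactory receptor level alone, Hoxa2 and Hoxa3. Of all Hox members, 10 exceed the 99th percentile.

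The 1 call in the other lists, Onecut2, became 0 calls without the dimmest genes, where Onecut2 itself was left out and not tested. There were 0 calls with the replicate block and with each of the 5 covariates, and 0 to 1 leaving out a mouse. The sign of Hoxc13 turned to 0.055 (smooth muscle), 0.085 (pancreatic) and 0.083 (pan-epithelial), and leaving out a mouse gave -0.12 to 0.079, above 0 without wild type 1, knockout 1 or knockout 2. That of Hoxd13 turned to 0.12 (smooth muscle) and 0.0037 (pan-epithelial), and leaving out a mouse gave -0.58 to 0.079, above 0 without knockout 1 or 2. For the other changes the cause was not tested.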

Other observations

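Mptx1, a mucosal pentraxin gene of the colon epithelial list chosen here after its values were seen, was at 7.93, 9.71, 7.21 and 7.33 in wild type and 2.98, 3.20, 6.19 and 5.66 in knockout. Knockouts 1 and 2, the mice of lowest Hoxb13, were also its lowest. The difference of -3.54 had a standard error of 0.78 and a limma adjusted p of 0.0795. Fabp6, an ileal bile acid binding protein gene, was at 4.70 and 4.46 in the same knockouts, 6.07 in knockout 3 and 5.17 in knockout 4. In wild type it was at 5.18 to 5.51, and its mean was under the olfactory receptor level of 5.53. Of the 11 small intestinal genes, 9 had differences below 0 and 2 above, Alpi and Slc10a2. Alpi was at 7.69 in knockout 1, 5.77 to 6.24 in the other knockouts and 5.90 to 6.17 in wild type. Slc10a2 was 0.50 higher in the knockout (limma adjusted p 0.16), with a mean of 5.46, also under that level.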
